A study of Mus musculus with 56 samples.

Results

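The step described here is the passage of reprogramming mouse fibroblasts from day 6 to day 9 inside the SSEA1+ sort, in cells that carried a control shRNA. Members were all gene rows of the sorted-cell table in the 2 day 6 and the 2 day 9 SSEA1+ libraries with that shRNA, 4 of the series' 56 samples and 4 of the table's 44 libraries, over 13451 genes. The starting cells were OG2-MEFs, mouse embryonic fibroblasts with an Oct4-GFP reporter, infected with a doxycycline-inducible lentivirus for Oct4, Sox2, Klf4 and Myc together with rtTA. All groups carried these, and all except day 0 had doxycycline (2 µg/ml) and vitamin C (50 µg/ml) in embryonic stem cell medium with LIF, a MEK inhibitor and a GSK3 inhibitor. The control shRNA is labelled shLuci. The same day 6 and day 9 sorts were also taken with a Ctcf shRNA, as 2 libraries each. Thy1+ cells and SSEA1-Thy1- (double-negative, DN) cells of those days were taken with the control shRNA, also as 2 libraries each. By the deposited library names, the SSEA1+ sort was Thy1-negative and the Thy1+ sort SSEA1-negative. The series asks how the insulator protein CTCF acts during reprogramming. The labels name no separate cultures behind the replicates, so the p-values here measure the spread between samples, which may be technical.

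SSEA1 is a fucosylated glycan on the surface of early embryonic cells. During reprogramming, fibroblasts first lose the surface protein Thy1, then a minority gains SSEA1, and some of these cells later switch on the endogenous Oct4 locus. The transition turns fibroblast genes down, epithelial genes up and pluripotency genes on in stages, with Dppa and Lin28a genes among the late ones. Imprinted genes are expressed from one parental allele, and several of those named below act mainly in the placenta and in fetal growth.

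Values are scores, normalized and rounded tag counts that the authors deposited. All libraries share nearly one distribution, with gene medians between 488 and 496 and gene totals between 26530180 and 27601592 in the 4 libraries. A difference is called when limma on log2(score + 1) gives an adjusted p below 0.05 over all genes, and SE is the standard error of that fit. Fold changes are on this scale, which understates those of low genes. From day 6 to day 9, 3031 genes were called higher (22.5%) and 3629 lower (27%), and the median over all genes was -0.07. Large changes ran mostly upward: 1412 genes (10.5%) rose and 459 (3.41%) fell by at least 1 on the log2 scale. Ctcf read 1994 and 1925 and then 1582 and 1853 (log2 -0.19, adjusted p = 0.0633).

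The sort, named SSEA1-positive and Thy1-negative, was checked against its own genes. Fut9, the fucosyltransferase that makes the SSEA1 glycan in embryonic cells, read 5234 and 6160 at day 6 and 4993 and 4592 at day 9 (log2 -0.25, adjusted p = 0.753). Day 9 Thy1+ cells averaged 877 for Fut9, so it stood high in both SSEA1+ groups. Thy1 itself read 81 and 119 at day 6 and 1290 and 1393 at day 9, a rise of 3.76 (SE 0.18, adjusted p = 7.39e-16), while Thy1+ cells averaged 10447.5 at day 9. The SSEA1+ mean was 12.8% of the Thy1+ mean at day 9, against 1.71% at day 6. In bulk RNA, some cells of another type in the sort and a low level in every cell cannot be told apart.

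The largest rises were taken from called genes whose higher group mean was at or above the median score of 493. Their day 6 and day 9 libraries also had to stand apart without overlap. Predicted genes, clones and pseudogenes were left out, among them Gm49394 (6.13 on the log2 scale). Imprinted and placental genes led these rises. Some genes of lower score rose as much and are given with their lists. Phlda2, an imprinted gene that limits placental growth, read 8 and 0 at day 6 and 745 and 687 at day 9. Igf2, the fetal growth factor, read 208 and 190 and then 13260 and 14923. H19, the noncoding RNA that neighbours Igf2 and is expressed from the other parental allele, read 872 and 1021 and then 39810 and 39308. In each of these genes both day 9 libraries stood far above both day 6 libraries. On the log2 scale the rises were 7.90 for Phlda2 (SE 0.72, adjusted p = 7.57e-10), 6.14 for Igf2 (SE 0.12, adjusted p = 2.45e-24) and 5.39 for H19 (SE 0.10, adjusted p = 2.25e-24).

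Peg10, a retrotransposon-derived imprinted gene needed for the placenta, read 364 and 316 at day 6 and 18078 and 17696 at day 9 (log2 5.72, SE 0.16). Cdkn1c, an imprinted inhibitor of cyclin-dependent kinases, read 106 and 98 and then 2372 and 3008 (log2 4.70, SE 0.19). Nrk, a kinase gene that restrains placental growth, read 42 and 37 and then 2460 and 2441 (log2 5.92, SE 0.18). In these genes the absence of overlap between libraries was a condition of the choice, met by 3011 of the 3031 called rises. Dusp9, a phosphatase gene for ERK that the placenta needs, read 66 and 92 and then 1811 and 1854 (log2 4.54). The simple epithelial keratins Krt7 and Krt18, which trophoblast also makes, rose by 4.96 and 4.35, with Krt18 at 214 and 296 and then at 5120 and 5160. Serpinb9e, whose family has close copies that could share its reads, rose from 0 and 15 to 448 and 618. The other large rises were of secreted or surface proteins: Ptn (4.57), Agtr2 (4.52), Igfbp4 (4.17), Col3a1 (4.14) and Mgp (4.02).

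The upstream sequence of the largest rises is shown as a description, and shared regulation of these genes was not tested. Of the 15 largest rises under the conditions above, 10 had an entry in the RefSeq promoter table (GRCm38.p6). The 250 bases before the start are given for the first 5 in order of fold change. Where RefSeq lists several starts, as for Igf2 with 4, the most downstream one was taken. Capitals mark matches on either strand to the TATA box TATAAA, to the GC box core GGGCGG, to the CCAAT box and to the octamer ATGCAAAT.
Phlda2, chr7:143502525-143502774, minus strand: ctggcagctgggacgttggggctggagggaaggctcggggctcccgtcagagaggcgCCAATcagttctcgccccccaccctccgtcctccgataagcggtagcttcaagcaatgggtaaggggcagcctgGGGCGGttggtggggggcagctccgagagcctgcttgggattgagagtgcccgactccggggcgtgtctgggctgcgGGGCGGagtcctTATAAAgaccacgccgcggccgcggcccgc
Serpinb9e, chr13:33249358-33249607, plus strand: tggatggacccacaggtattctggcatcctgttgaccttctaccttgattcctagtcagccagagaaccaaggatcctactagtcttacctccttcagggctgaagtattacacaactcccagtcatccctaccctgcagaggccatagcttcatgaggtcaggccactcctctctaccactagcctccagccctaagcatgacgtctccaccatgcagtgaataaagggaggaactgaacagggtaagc
Igf2, chr7:142657497-142657746, minus strand: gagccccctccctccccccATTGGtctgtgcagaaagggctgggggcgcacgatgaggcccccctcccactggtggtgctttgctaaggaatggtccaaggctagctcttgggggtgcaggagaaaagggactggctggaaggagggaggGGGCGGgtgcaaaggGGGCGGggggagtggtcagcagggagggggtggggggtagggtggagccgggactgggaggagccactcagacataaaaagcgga
Nrk, chrX:138914180-138914429, plus strand: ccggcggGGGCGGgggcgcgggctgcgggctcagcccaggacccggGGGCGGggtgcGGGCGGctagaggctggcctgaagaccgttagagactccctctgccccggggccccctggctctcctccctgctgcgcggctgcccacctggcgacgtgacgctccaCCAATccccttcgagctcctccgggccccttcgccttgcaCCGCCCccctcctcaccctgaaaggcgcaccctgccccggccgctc
Krt7, chr15:101412153-101412402, plus strand: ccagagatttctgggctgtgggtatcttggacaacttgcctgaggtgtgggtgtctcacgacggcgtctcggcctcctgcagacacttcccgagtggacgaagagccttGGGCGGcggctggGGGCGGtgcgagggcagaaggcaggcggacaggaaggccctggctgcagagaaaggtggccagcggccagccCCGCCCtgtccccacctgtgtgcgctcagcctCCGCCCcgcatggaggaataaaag
The GC box core occurred in 4 of these 5 windows and in 57.9% of the 10261 windows of tested genes. The TATA box occurred in the Phlda2 window and in 6.8% of all windows, 8.75% of those of called rises and 5.4% of those of called falls. The CCAAT box was present in 36% of all windows and the octamer, bound by POU factors such as Oct4, in 1.4%. A match is a description of letters and not a binding site.

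Igf2, H19, Cdkn1c and Phlda2 lie in one imprinted cluster on distal chromosome 7 (GRCm38). Between H19 (chr7:142575529-142578143) and Nap1l4 (chr7:143513579-143549106), 10 genes were tested, a set chosen after the values were seen. Of these, 7 were higher, 0 lower and 3 not called, with a median of 3.57. One of the 7, Gm49394, overlaps Igf2 on the same strand with nearly the same scores, so the pair is not 2 separate measurements. Ascl2, a trophoblast transcription factor gene of the cluster, rose by 2.45, and Cd81, the gene of a widely expressed surface protein, by 0.44. Tssc4 (0.09), Trpm5 (-0.47) and Nap1l4 (-0.11) were not called. Rises were therefore unequal within the cluster.

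Igf2, H19 and Peg10 were higher at day 9 than at the other days measured in these populations. Igf2 averaged 8907 in day 0 fibroblasts, 298.5 in day 3 SSEA1+ cells, 199 at day 6, 14091.5 at day 9 and 3019.5 in day 12 GFP+ cells. H19 averaged 3074.5, 552.5, 946.5, 39559 and 9443 in the same order. Peg10 averaged 1201 in fibroblasts, 340 and 17887 in SSEA1+ cells of day 6 and day 9, and 5838 in GFP+ cells. The other sorts did not reach these levels at day 9: Igf2 averaged 9131 in Thy1+ and 8524 in DN cells, H19 26278.5 and 24810.5, and Peg10 3417.5 and 9739. Phlda2 stood at 716 in SSEA1+ cells against 78.5 and 295, and Krt18 at 5140 against 768.5 and 2382.5.

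**Figure D1:**
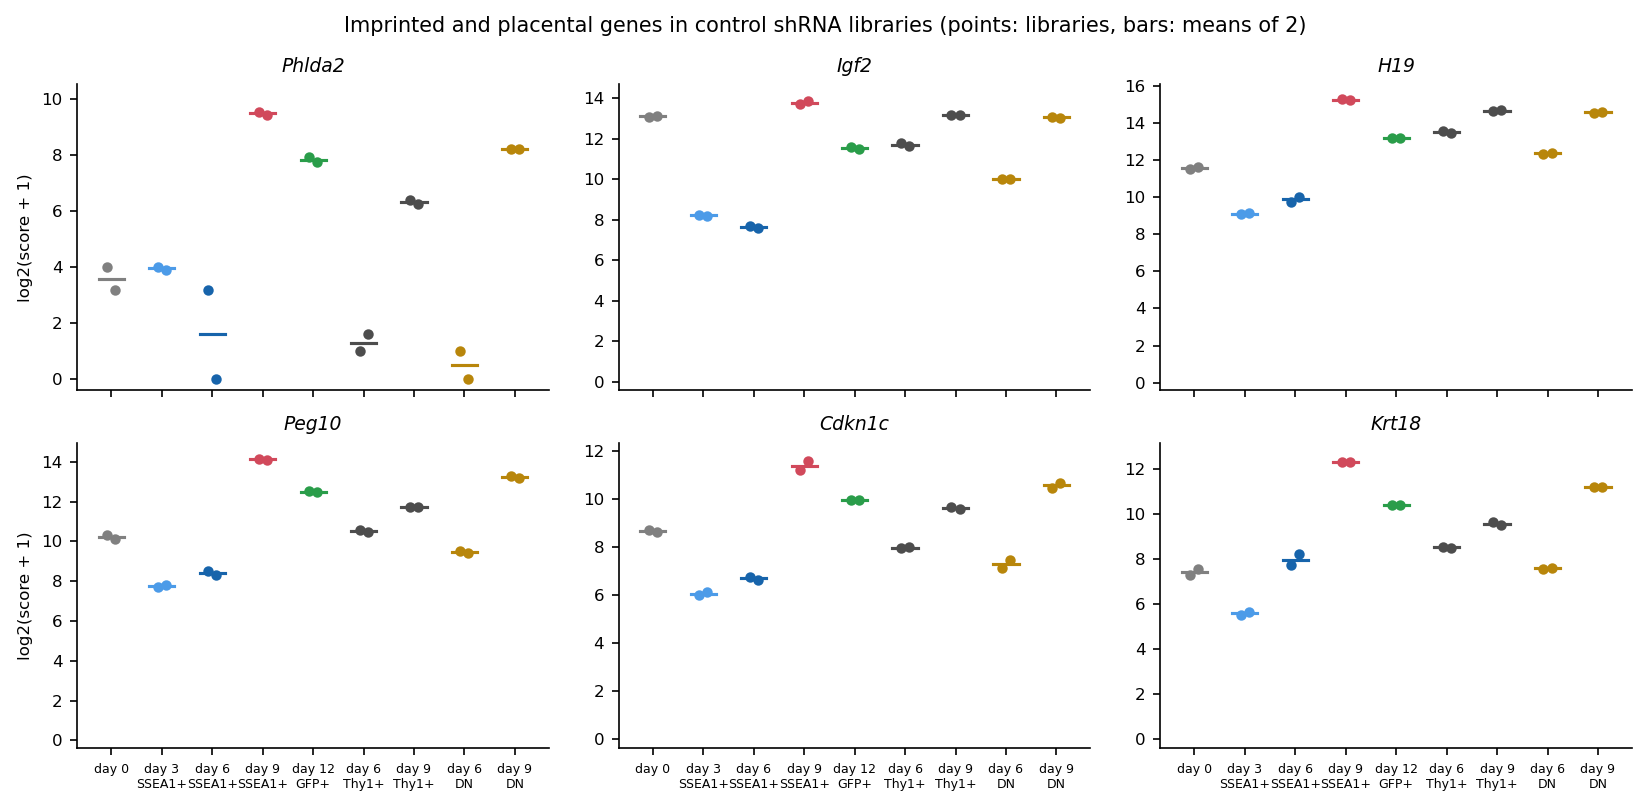
Scores of 6 genes as log2(score + 1) on the vertical axis in the control shRNA populations on the horizontal axis, with points for libraries and bars for the mean of 2 (DN, double-negative). In all 6 genes both day 9 SSEA1+ libraries stand above every other library shown, for example Peg10 at 18078 and 17696.

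The trophoblast and imprinted lists give the wider picture, and they overlap with the largest rises. Of 13 trophoblast genes tested, 9 rose, 1 fell and 3 were not called (median 3.05). Besides Phlda2, Peg10 and Krt7 they include Plac1, an X-linked placental gene that went from 0 and 1 to 295 and 363, and Hand1, a regulator of giant cells, from 1 and 7 to 58 and 72 (log2 4.04). Tead4, a regulator of early trophectoderm, fell by 0.67. Elf5 (1.01, adjusted p = 0.0559), Elf3 (1.12) and Esx1 (0.03) were not called. At day 9, each of the 9 that rose was above both Thy1+ and DN cells in every library. Of 19 imprinted genes, 13 rose and 2 fell (median 0.48). At day 9, 6 of these 13 rises were above both other sorts in every library and 7 were below both. Outside distal chromosome 7, the neuronal and placental gene Usp29 rose by 1.93 and Sgce, the neighbour of Peg10, by 1.69. Mirg (-0.67) and Nnat (-0.42) fell, calls lost without D9_shLuci_SSEA1+ replicate 2 (adjusted p = 0.294 and 0.0561) and without D6_shLuci_SSEA1+ replicate 1, and for Mirg also without replicate 2 of that group. Snrpn (0.22) and Gnas (0.12) were not called.

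Of 32 pluripotency genes tested, 19 rose, 3 fell and 10 were not called (median 1.46), against 22.5% and 27% of all genes. Dppa4, a chromatin-binding gene of the early embryo, read 1 and 0 at day 6 and 112 and 90 at day 9 (log2 6.16, SE 0.56, adjusted p = 7.86e-10). Dppa5a, which encodes an RNA-binding protein of pluripotent cells, read 3 and 13 and then 518 and 320 (log2 5.77, SE 0.68). Dnmt3l, the cofactor of de novo DNA methylation, read 2 and 2 and then 106 and 94 (log2 5.07). Dppa2, the partner of Dppa4, rose by 4.33. Without D6_shLuci_SSEA1+ replicate 1 the Dppa2 rise was 2.60, and with only the groups compared its adjusted p was 0.0729. Lin28a, which blocks let-7 maturation and was added after its values were seen, read 30 and 31 and then 306 and 349 (log2 3.38).

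Nanog, the homeobox gene of the naive network, read 1688 and 1525 at day 6 and 1607 and 1582 at day 9 (log2 -0.01, SE 0.44, adjusted p = 0.994). Its day 9 libraries lay between those of day 6. Sall4, Fgf4 and Nr0b1 were not called either, at -0.50, -0.23 and -0.12. Esrrb, an orphan receptor of the naive network, rose from 191 and 206 to 522 and 572 (log2 1.46, SE 0.52, adjusted p = 0.0233), and Tdgf1, the Nodal co-receptor, from 224 and 242 to 776 and 799 (log2 1.75). The Esrrb call was lost on leaving out any 1 of the 4 libraries (adjusted p 0.0674 to 0.0934). Among the falls were L1td1, an RNA-binding gene, from 6439 and 6558 to 3083 and 3236 (log2 -1.04, SE 0.09, adjusted p = 3.51e-10), and Nr5a2 (-1.02, adjusted p = 0.0407). The Nr5a2 call was lost without D9_shLuci_SSEA1+ replicate 1 (-0.78, adjusted p = 0.23) and without either library of D6_shLuci_SSEA1+. For comparison, day 12 GFP+ cells averaged 7746 for Dppa5a, 4213 for Esrrb and 5263 for Nanog.

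**Figure D2:**
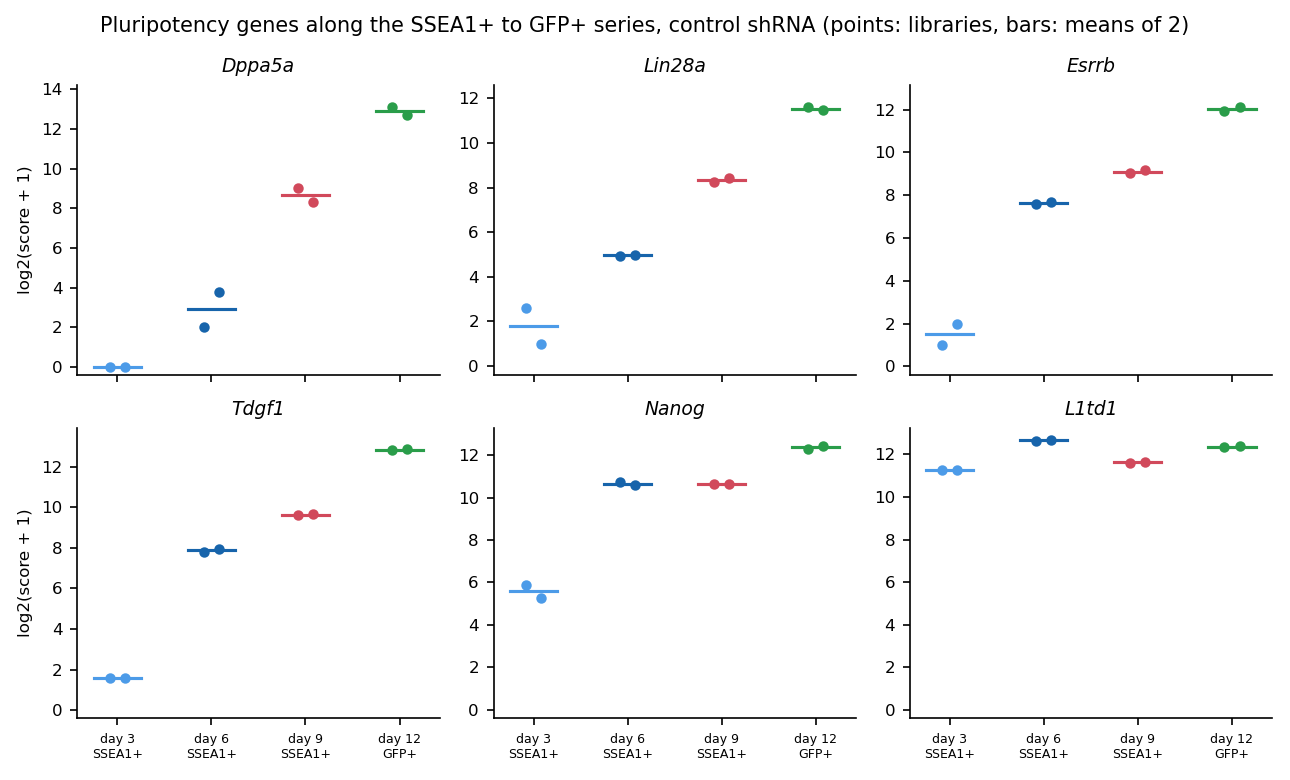
Scores of 6 pluripotency genes as log2(score + 1) on the vertical axis by day and sort on the horizontal axis, control shRNA, with points for libraries and bars for the mean of 2. Dppa5a, Lin28a, Esrrb and Tdgf1 step up between day 6 and day 9, Nanog stays near 1600, and L1td1 is lower at day 9 (3083 and 3236) than at day 6 (6439 and 6558).

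The 4 factor genes, whose scores include transgene reads that cannot be told apart from endogenous ones, did not rise. Klf4 read 21251 and 20518 and then 14092 and 16348 (log2 -0.46, adjusted p = 0.0104). Myc read 17062 and 16589 and then 12092 and 14606 (log2 -0.34, adjusted p = 0.0408). Both calls hang on single libraries: without D9_shLuci_SSEA1+ replicate 1 Klf4 stood at -0.35 (adjusted p = 0.117) and Myc at -0.20 (adjusted p = 0.339), and both were also lost without D6_shLuci_SSEA1+ replicate 1, Myc without replicate 2 of that group too (-0.36, adjusted p = 0.0954). Pou5f1 (-0.46, adjusted p = 0.0526) and Sox2 (-0.07) were not called. Smarca5, an ISWI remodeller gene, fell by 0.52 (adjusted p = 0.000468), from 171558 and 203478 to 131566 and 128388, a call lost with only the groups compared in the fit (adjusted p = 0.182). Which reads make up these high scores was not examined. The list of CTCF with its cohesin and remodeller partners had 1 higher and 3 lower of 17, shares below the 22.5% and 27% over all genes. Its median of -0.07 ran from -0.14 to 0.01 over the alternatives.

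Genes of the primed and formative state, the stage after implantation, mostly rose from very low levels. Of 15 tested, 8 rose and 2 fell (median 0.91). Foxd3 went from 1 and 1 to 44 and 38 (log2 4.39), Otx2, the formative homeobox gene, from 5 and 4 to 52 and 54 (log2 3.30), and Fgf5, the epiblast marker, from 0 and 1 to 16 and 20. Cer1 was listed at 0 in both day 6 libraries and at 5 and 10 at day 9. Nodal itself went the other way, from 80 and 102 to 18 and 26 (log2 -2.01, adjusted p = 0.00479), a call lost without D9_shLuci_SSEA1+ replicate 1 (adjusted p = 0.0501). The germ cell list had 5 higher and 0 lower of 11 (median 1.05). Rhox9, of a family with close copies, rose from 1 and 3 to 146 and 118 (log2 5.55). Dazl, an RNA-binding germ cell gene, was listed at 0 and 0 at day 6 and at 158 and 121 at day 9, and Stk31 at 0 and 0 and at 94 and 14. The calls of Dazl, Sycp3, Rhox5 and Stk31 were lost on leaving out some single library of the 4, with adjusted p of 0.0597 to 0.0755 for Dazl. In the mesendoderm list the founding gene T was listed at 0 and 0 and then at 12 and 10, and 2 of 5 were called higher and 1 lower.

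Of 27 epithelial genes tested, 10 rose, 1 fell and 16 were not called (median 0.46). The claudins Cldn3, Cldn4 and Cldn6, which seal tight junctions, rose by 2.97, 2.24 and 2.10, with Cldn4 at 735 and 765 and then at 3650 and 3450. Krt19 rose from 281 and 305 to 1088 and 1120 (log2 1.91). Cdh1, the epithelial cadherin, read 4772 and 4563 and then 6638 and 6953 (log2 0.54, adjusted p = 0.11), and Epcam 3454 and 3683 and then 3302 and 3179 (log2 -0.14). Esrp1 and Grhl2 were not called, at 0.08 and 0.04. Marveld3, a tight junction gene, fell by 0.89, a call lost on leaving out D9_shLuci_SSEA1+ replicate 2 or either library of D6_shLuci_SSEA1+ (adjusted p 0.0611 to 0.149). Each of the 10 that rose was above both other sorts in every day 9 library. Basal keratinocyte genes had 6 higher and 0 lower of 10 (median 0.93), from Krt14 at 5 and 6 and then 80 and 75 to Sfn, a keratinocyte 14-3-3 gene, at 456 and 462 and then 1201 and 1210.

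Fibroblast matrix genes rose without exception. All 26 tested were higher at day 9, with a median of 2.81. Col1a1, a chain of type I collagen, read 788 and 753 at day 6 and 12112 and 12744 at day 9 (log2 4.01, SE 0.11, adjusted p = 8.69e-21). Col3a1, of type III collagen, read 204 and 276 and then 4358 and 4034 (log2 4.14). Eln, elastin, read 2 and 0 and then 58 and 66, and Postn and Col6a3 rose by 3.95 and 3.73. Fn1, fibronectin, read 2856 and 2784 and then 25245 and 24910 (log2 3.15), and Thbs1, thrombospondin, 2436 and 2374 and then 14760 and 14743 (log2 2.62). The smallest rise was that of Fbln1, at 0.35, a call lost on leaving out D9_shLuci_SSEA1+ replicate 2 or either library of D6_shLuci_SSEA1+ (adjusted p 0.0644 to 0.179).

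These genes stood far higher in Thy1+ cells, and their ratio to that sort is given beside the rise. The 26 scores summed to 19415 and 19748 in the day 6 SSEA1+ libraries, to 119769 and 122848 at day 9, and to 764592 and 838435 in Thy1+ cells at day 9. As a share of the Thy1+ mean of the same day, SSEA1+ levels had a median of 2.76% at day 6 (0.961% to 36.7%) and of 15.3% at day 9 (10.6% to 30.3%). The spread of these shares between genes was narrower at day 9. All 26 were below both Thy1+ and DN cells in every day 9 library. Thy1 moved with them, from 1.71% to 12.8% of its Thy1+ level, and its part in the result was not tested.

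**Figure D3:**
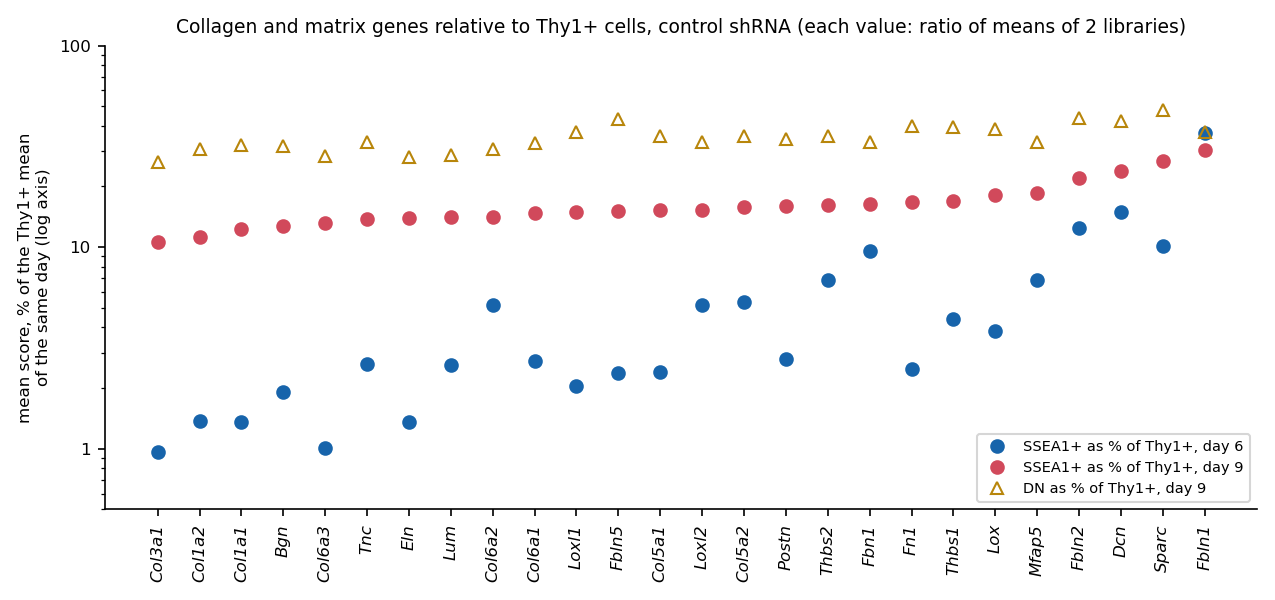
Mean scores of the 26 matrix genes in SSEA1+ cells at day 6 and day 9 and in double-negative (DN) cells at day 9, as a percentage of the Thy1+ mean of the same day on a log axis, control shRNA, each point a ratio of means of 2 libraries. SSEA1+ shares lie between 0.961% and 36.7% at day 6 and between 10.6% and 30.3% at day 9, and only for Fbln1 is the day 9 share the lower one.

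Other mesenchymal groups followed. Of 21 mesenchymal regulators and surface genes, 18 rose and 1 fell (median 1.54). Pdgfra, the platelet-derived growth factor receptor of fibroblasts, read 8 and 12 and then 224 and 229 (log2 4.39, SE 0.21, adjusted p = 1.45e-15), and Fap, Cdh11 and Pdgfrb rose by 3.56, 3.01 and 2.97. Vim, vimentin, read 4608 and 4488 and then 15884 and 14498 (log2 1.74). Eng, a TGF-beta co-receptor, fell by 0.48, a call lost without D9_shLuci_SSEA1+ replicate 1 (adjusted p = 0.0526) or D6_shLuci_SSEA1+ replicate 2 (adjusted p = 0.0504). All 14 smooth muscle contractile genes rose (median 2.53), with Acta2, smooth muscle actin, at 500 and 588 and then at 4800 and 4858 (log2 3.15), and Myl9, Lmod1, Tagln and Cnn1 higher by 2.73 to 2.90. At day 9 the 18 mesenchymal genes that rose were below both other sorts in every library, and so were 13 of the 14 smooth muscle genes. Their summed levels at day 9 were 31226 and 29545 and 28950 and 28655 in SSEA1+ cells, against 142436 and 147592 and 103534 and 107497 in Thy1+ cells. The part of Thy1+ cells in these rises was not tested.

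Markers of other cell types are given beside the 49.5% of all genes called in either direction. Macrophage genes had 0 called of 9, with summed scores of 1617 and 1755 and then 1681 and 2232, and Adgre1, the defining F4/80 gene, read 0 and 0 and then 1 and 3. Of 6 endothelial genes 2 rose and 1 fell, with Cdh5 at 0 and 1 and then at 38 and 48, Flt1 higher by 2.54 and Tek lower by 0.56. Of 7 neural genes, Nes rose by 1.06, and Map2 (-0.47) and Tubb3 (-0.40) fell, the last a call lost without D9_shLuci_SSEA1+ replicate 1 (adjusted p = 0.0552). The skeletal muscle list had 3 genes tested, of which Des, also a smooth muscle gene, rose by 2.55.

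Genes of the TGF-beta pathway rose, with 12 higher and 0 lower of 17 (median 1.40). Among ligands and their stores, Tgfb1 rose from 13 and 26 to 106 and 156 (log2 2.74), Tgfb3 by 2.32 and the binding protein gene Ltbp2 by 2.73. The co-receptor gene Tgfbr3 rose from 68 and 56 to 532 and 503 (log2 3.05). Of 13 BMP pathway genes, 6 rose and 2 fell (median 0.62): the antagonist Grem1 rose from 396 and 422 to 3842 and 3483 (log2 3.16), while the target genes Id1 and Id2 fell by 0.70 and 0.40. The 12 TGF-beta and 6 BMP genes that rose were below both other sorts at day 9.

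Genes of the LIF and STAT3 pathway, which sustains naive pluripotency, had 7 higher and 1 lower of 10 (median 0.96). LIF was in the medium of all sorts on both days. In the Thy1+ and DN steps, 9 of 10 rose in each (medians 0.99 and 0.64). Bcl3 read 8 and 24 and then 118 and 118 (log2 2.99), Socs3, the feedback inhibitor, 127 and 160 and then 636 and 681 (log2 2.20), and the receptor gene Lifr rose by 1.85. Junb rose by 2.39, and Socs2 fell by 0.34, a call lost without D9_shLuci_SSEA1+ replicate 1 (adjusted p = 0.106) or D6_shLuci_SSEA1+ replicate 1 (adjusted p = 0.169). All 7 that rose were below both other sorts at day 9, and the median share of the Thy1+ level over the list went from 25.4% to 38.9%. In the Wnt list, with 7 higher and 0 lower of 12, the ligand gene Wnt7b went from 32 and 26 to 405 and 407 (log2 3.77). Of 14 FGF and ERK genes, 5 rose and 2 fell: Fgfr2 rose by 1.44 and the inhibitor gene Spry4 fell by 1.09. Immediate early genes of the AP-1 family had 10 higher and 0 lower of 13 (median 1.48), among them Fos at 1190 and 1216 and then 4294 and 4681 (log2 1.90), Fosb (1.74) and Jun (1.65). Of these 13, 12 rose in the Thy1+ step (median 0.95) and 10 in the DN step (median 1.16).

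Cell cycle genes fell by small amounts. Of 20 mitosis genes, 15 were lower and 0 higher (median -0.32), and of 22 replication genes 12 were lower and 0 higher (median -0.36), against 27% lower over all genes. Ccne2, the S-phase cyclin, fell from 2180 and 2535 to 1330 and 998 (log2 -1.03, SE 0.16, adjusted p = 5.67e-06), and Pola1, a polymerase subunit gene, by 0.58. Cenpe, Bub1b and Ttk of the spindle checkpoint fell by 0.51 to 0.52. All 15 mitosis genes were still above both other sorts at day 9. In the list of p53 targets and CDK inhibitors, 10 of 19 rose and 1 fell (median 0.29). Besides Cdkn1c they were led by Cdkn2b (1.34), Bbc3, a pro-apoptotic gene (1.23), and Cdkn1b (0.83). Cdkn1a rose by 0.38, and Mdm2 was not called at 0.00.

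Among housekeeping and stress groups, all 14 autophagy and lysosome genes rose (median 0.69), led by Sqstm1, the autophagy receptor, from 1636 and 1738 to 5030 and 4725 (log2 1.53), and Tfeb, a lysosomal regulator (1.35). At day 9, 12 of these 14 were below both other sorts, and the median share of the Thy1+ level went from 40.6% to 54.1%. Of 18 glucose uptake and glycolysis genes 4 rose and 5 fell (median -0.07). These shares lie near the 22.5% higher and 27% lower over all genes, the background for every list here. Slc2a1 read 2546 and 2579 and then 4898 and 5140 (log2 0.97). Slc2a3 stood at 0.96 and Hk1 at 0.96, and Pfkp (-0.47) and Hk2 (-0.38) were lower. Of 22 oxidative phosphorylation rows, 1 was higher and 3 lower. The ATF4 and unfolded protein list had 6 higher and 4 lower of 17, with Dnajb9, a chaperone of the endoplasmic reticulum, at 1.18 and Chac1 at -1.13. Interferon-stimulated genes had 9 higher and 0 lower of 13 (median 0.75), from low levels: Irf7 went from 4 and 10 to 39 and 39, and Ifit1 was listed at 0 and 0 and then at 7 and 12. Antigen presentation had 5 higher and 1 lower of 8, with Tapbp, the peptide loading factor, at 1.46 and Psmb10 at -0.90. Hypoxia genes had 5 higher and 2 lower of 11, led by Ndrg1 (1.55) and Ankrd37 (-1.54). Cholesterol genes had 5 higher and 4 lower of 20, shares near the background, with Insig1 at 1.03 and Pmvk at -0.70. Ribosomal protein genes had 11 higher of 79 and proteasome genes 1 higher and 9 lower of 36, shares below or near the background. The calls of Rps20 and Rps26 were lost without D9_shLuci_SSEA1+ replicate 1.

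Among chromatin genes, Polycomb genes had 3 higher and 9 lower of 24 (median -0.19), against 22.5% and 27% of all genes. Cbx2, a chromobox subunit, went from 385 and 385 to 153 and 163 (log2 -1.28, SE 0.13, adjusted p = 3.80e-09). Ezh2, the methyltransferase, was lower by 0.43 and was added after its values were seen. Of 15 BAF and CAF-1 genes 1 rose and 5 fell. Of 15 histone demethylase, SETDB1 and TRIM28 genes 1 rose and 4 fell, a share of falls near that of all genes. The median of this list was -0.04 and ran from -0.10 to 0.04 over the alternatives. Setdb1 (-0.40) and Suv39h1 (-0.48) were among its falls. Of 9 DNA methylation and demethylation genes 1 rose and 2 fell (median -0.10), shares below or near those of all genes. Dnmt1 and its partner Uhrf1, which maintain DNA methylation, fell by 0.39 and 0.34. Dnmt3l and Tet1, both listed with the pluripotency genes, rose by 5.07 and 1.02, and Dnmt3b rose by 1.19. Hox genes, which hold the positional identity of fibroblasts, had 3 higher and 14 lower of 30 (median -0.48): Hoxd8 fell from 121 and 112 to 49 and 54 (log2 -1.16) and Hoxa10 by 1.09, and the names Hoxd4 and Hoxa2 also fell. The Hoxa2 call was lost without D9_shLuci_SSEA1+ replicate 2 (adjusted p = 0.135) and without D6_shLuci_SSEA1+ replicate 2 (adjusted p = 0.181). Clustered protocadherins had 26 higher and 1 lower of 28 (median 0.86), but gamma genes share constant exons and nearly equal scores, so these are not separate measurements. At day 9, 24 of these 26 rises were below both other sorts in every library. In the Thy1+ and DN steps, 20 and 21 of the 28 rose (medians 0.36 and 0.80). Of 11 genes for the SSEA1 glycan and its neighbours, 4 rose and 2 fell, led by B3gnt5, which starts the lacto-series chain, from 34 and 40 to 218 and 264 (log2 2.67).

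**Figure D4:**
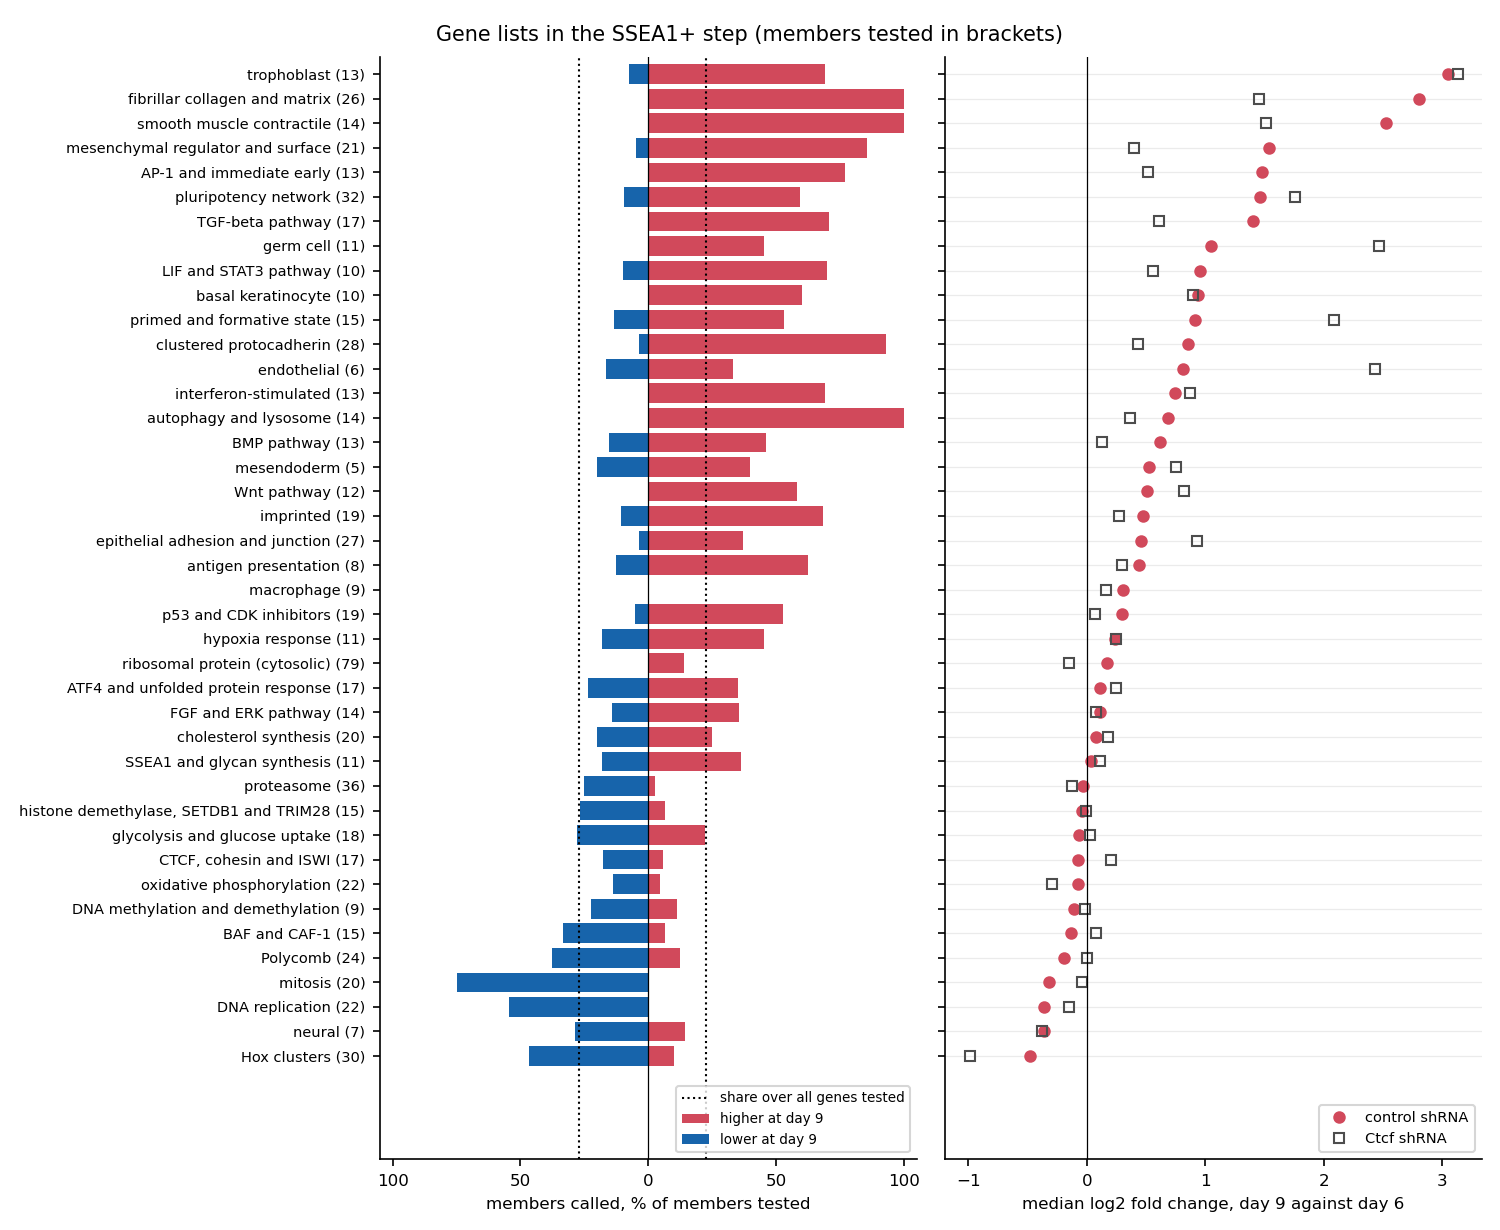
Gene lists with at least 5 members tested, with the share of members called higher and lower on the left (dotted lines at 22.5% and 27%, the shares over all genes) and the median log2 fold change of the step on the right for control and Ctcf shRNA. Trophoblast (3.05) and matrix (2.81) genes stand at the top and Hox genes (-0.48) at the bottom under control shRNA.

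The rule on high day 9 levels among genes up by at least 1 named H19, Peg10, Fn1, Thbs1 and Vim, Tceal9, Nbeal1 and Ereg, an EGF-family ligand gene (4731 and 5292, then 17538 and 19396), and Actg1 and Ftl1, a cytoskeletal actin and a ferritin gene with close copies in the genome. Under the conditions used for the largest rises, falls were smaller than rises. The largest of them, of Ttc30a1, which acts in transport along cilia, was from 546 and 582 to 156 and 178 (log2 -1.75, SE 0.21, adjusted p = 1.51e-07). Myh7b, Tgm3, Greb1 and Rab39b, of muscle, skin, hormone response and vesicle traffic, followed at -1.61, -1.59, -1.48 and -1.42, and the noncoding RNA Miat at -1.40. Kif7, a regulator of Hedgehog signalling, fell by 1.27, Ecscr by 1.31, Nkrf by 1.12 and Prx by 1.05. The linker histone gene Hist1h1d read 4035 and 891 at day 6 and 738 and 794 at day 9 (log2 -1.31), and without D6_shLuci_SSEA1+ replicate 1 it stood at -0.22 (adjusted p = 0.706).

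Of the 15 largest falls under the conditions used for the largest rises, 6 were Zfp-named. Among them were Zfp933 from 914 and 1064 to 336 and 380 (log2 -1.46) and Zfp958 from 10352 and 12522 to 5234 and 4178 (log2 -1.28). The others were Zfp119a (-1.39), Zfp953 (-1.27), Zfp708 (-1.26) and Zfp711 (-1.25). Zfp994 was among the falls with the highest day 6 level (-1.09). Of all 350 Zfp-named genes, a set chosen after the values were seen, 189 (54%) were lower and 17 (4.86%) higher, with a median of -0.44, against 27% and 22.5% of all genes. The Zfp-named median was also low in the Thy1+ step (-0.30), the DN step (-0.35) and the SSEA1+ step with Ctcf shRNA (-0.25). Over all genes those medians were -0.02, -0.07 and -0.06. Many Zfp-named genes encode KRAB zinc finger proteins, which can silence retroelements, and some have close copies that could share reads.

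The same step was measured in 4 other libraries, of cells with a Ctcf shRNA. Ctcf read 838 and 865 there at day 6 and 717 and 702 at day 9. In those libraries 2984 genes rose (22.2%) and 3275 fell (24.3%), 46.5% in all. Of the 3031 rises with control shRNA, 2097 (69.2%) were called higher and 55 lower with Ctcf shRNA, and of the 3629 falls 2230 (61.4%) were called lower and 21 higher. These overlaps are 70.3% and 68.1% of the Ctcf shRNA calls. Across genes, which are not independent replicates, the fold changes had a Pearson correlation of 0.713. Large rises recurred: with Ctcf shRNA Phlda2 rose by 8.18, Peg10 by 6.29, Igf2 by 6.08 and H19 by 5.22.

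The test of the difference between these steps called 864 genes (6.42%) for a step further upward with control shRNA and 429 (3.19%) for the opposite, 9.61% in all. Matrix genes had 23 of 26 in the first group and 0 in the second, with a median step of 1.46 under Ctcf shRNA against 2.81. Mesenchymal genes had 15 and 0 of 21. Il6, the inflammatory cytokine, rose by 2.79 with control and stood at 0.00 with Ctcf shRNA, Ereg rose by 1.88 and fell by 0.71, and Angpt1 stood at 2.32 and -0.13. Thy1 rose by 3.76 and by 1.75, so it differed in the same direction (difference 2.01, adjusted p = 2.79e-06), and the part of Thy1+ cells in these differences was not tested. With only the groups compared in the fit, the differences of Thy1 (adjusted p = 0.0589) and Il6 (adjusted p = 0.0782) were no longer called. In the other direction, the lactate transporter gene Slc16a3 stood at -0.17 with control and rose by 2.92 with Ctcf shRNA, the glucose transporter genes Slc2a3 and Slc2a1 rose by 0.96 and 0.97 against 2.13 and 2.11, and Tet1, a DNA demethylation enzyme gene, by 1.02 against 2.46. Igfbp2 rose by 1.92 against 4.57. Hox genes had 8 and 0 of 30, with medians of -0.48 and -0.99. The difference of Lum, a matrix proteoglycan gene (2.10), was lost without D6_shCTCF_SSEA1+ replicate 1 (0.98, adjusted p = 0.0612) and without D6_shLuci_SSEA1+ replicate 2 (1.87, adjusted p = 0.0523), and with only the groups compared (adjusted p = 0.286).

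**Figure D5:**
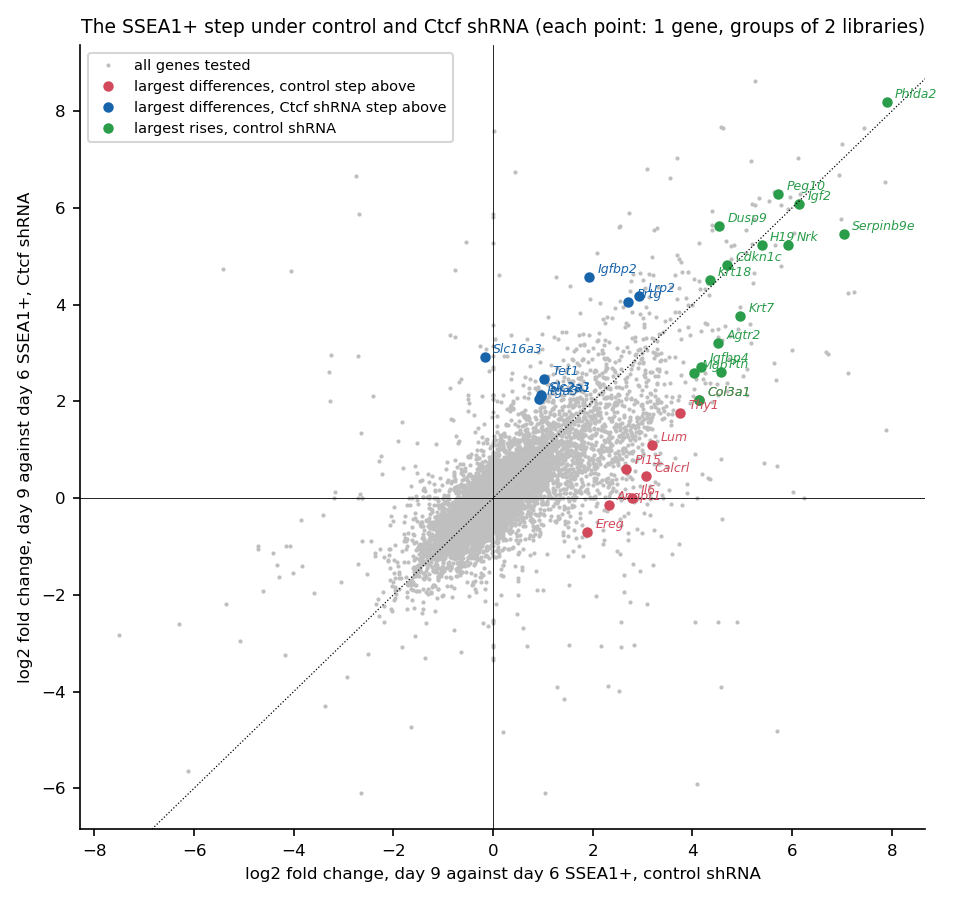
Log2 fold changes of the SSEA1+ step from day 6 to day 9 with control shRNA (horizontal) and Ctcf shRNA (vertical), each point 1 gene and the dotted line equality. Phlda2 (7.90 and 8.18) and Peg10 (5.72 and 6.29) lie near the line, Ereg (1.88 and -0.71) and Il6 (2.79 and 0.00) below it, and Igfbp2 (1.92 and 4.57) above it.

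The same days were compared in the other sorts with control shRNA, which share no library with the SSEA1+ step. The Thy1+ step had 1455 genes higher (10.8%) and 1757 lower (13.1%), and its difference from the SSEA1+ step was called for 2252 genes with the SSEA1+ step further upward (16.7%) and for 1768 with it further downward (13.1%), 29.9% in all. Igf2 rose by 1.46 in Thy1+ cells against 6.14 (difference 4.68, SE 0.16, adjusted p = 1.32e-17), Nrk by 1.10 against 5.92, Peg10 by 1.22 against 5.72 and H19 by 1.17 against 5.39. Matrix genes had 25 of 26 with the larger step in SSEA1+ cells, and Pdgfra stood at 0.31 against 4.39. Pluripotency genes had 5 with the larger and 8 with the smaller step in SSEA1+ cells: Nr5a2 rose by 2.11 in Thy1+ cells and fell by 1.02 in SSEA1+ cells, and Tfap2c, a trophoblast and germ cell regulator, rose by 3.66 against 0.87. The Tfap2c rise in SSEA1+ cells (adjusted p = 0.0497) was lost on leaving out any 1 of its 4 libraries (adjusted p 0.0955 to 0.179). Of replication genes 15 of 22 had the lower step in SSEA1+ cells, with medians of 0.29 and -0.36.

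The DN step was nearer. It had 2194 genes higher (16.3%) and 2617 lower (19.5%), and its difference from the SSEA1+ step was called upward for 955 genes (7.1%) and downward for 207 (1.54%), 8.64% in all. H19 and Igf2 rose by 2.23 and 3.05 in DN cells, 3.16 and 3.09 less than in SSEA1+ cells. Of the 13 trophoblast genes, 11 rose in the DN step (median 3.15) and 10 in the Thy1+ step (median 2.46). Their difference between the SSEA1+ and DN steps was called upward for 2 and downward for 2. Phlda2 rose by 7.71 in DN cells against 7.90, a difference that was not called. Pdgfra rose by 1.23 against 4.39, Igfbp4, an IGF-binding protein gene, by 1.67 against 4.17, and the galectin gene Lgals1 stood at 0.50 against 2.99. Matrix genes had 18 of 26 with the larger step in SSEA1+ cells and 1 with the smaller. Esrrb and Tdgf1 rose by 4.51 and 4.25 in DN cells, more than in SSEA1+ cells by 3.05 and 2.49, and Epcam rose by 0.99 there. At day 9, Esrrb nonetheless averaged 272 in DN cells against 547 in SSEA1+ cells. The Tdgf1 difference (adjusted p = 0.0175) was lost on leaving out 1 library, for 5 of the libraries, with adjusted p up to 0.0748, and with a pseudocount of 0.5 (adjusted p = 0.11).

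Set against both other sorts at day 9, the genes that rose fell into different kinds. Of the 3031 rises, 497 (16.4%) ended above both Thy1+ and DN cells in every library and 1754 (57.9%) below both, against 30.7% and 25.3% of all genes. The first kind held the trophoblast genes, the epithelial genes and 17 of the 19 pluripotency genes that rose, and the second held the matrix, mesenchymal and TGF-beta genes. Of the 3629 falls, 1513 (41.7%) ended above both, among them the mitosis genes.

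Repeat types in the same table were fitted apart from genes. Of 819 types, 50 (6.11%) were higher and 45 (5.49%) lower at day 9, with a median of -0.07. Alu elements had 4 higher and 0 lower of 15 (median 0.32), and endogenous retroviruses of the ERVK family 15 higher and 7 lower of 211. The ERVL family had 0 higher and 3 lower of 59, and the DNA transposon families TcMar-Tigger and hAT-Charlie 0 higher and 6 lower of 41 and of 68.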

How the data were processed

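RNA was measured in sorted reprogramming cells, with TRIzol extraction and a NEBNext Ultra library kit per the labels. Per the submitters' processing notes the tools were FastQC, Trim Galore and RSEM on GRCm38 (mm10), with no versions given. The deposited unit is a score, which from its values is a rounded tag count after a normalization by the authors that gives libraries nearly one distribution, so no count model was used. The limma package (3.58.1, R 4.3.3) modelled log2(score + 1) over all 44 libraries, with the trend option, 22 groups of 2, with Benjamini-Hochberg adjustment over 13451 genes and 22 residual degrees of freedom. The filter, 2 or more libraries with 10 or more, was met by every gene. Genes were matched to GENCODE vM21 by ID (13447 of 13451). Replicates agree to a median absolute log2 difference of 0.111 at day 6 and 0.136 at day 9. The script was tested on simulated data.

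The members, the 44 gene lists and the rule for named genes were chosen with earlier results of these data known. The rule names fixed genes, the 15 largest called changes each way above the median score of 493 and the 10 highest levels each way. It also names up to 5 called members per list, and the 8 largest called differences each way between steps among genes reaching that score. The largest changes, highest levels and largest differences also needed control SSEA1+ libraries of day 6 and day 9 without overlap. Predicted genes (Gm-numbered), Rik clones, numbered BC, AI, AU and AW symbols and pseudogenes (-ps) were left out of them. Fut4 is not analysed here, and some genes the rule names are not reported here. Alternatives were other pseudocounts, filters, scalings, fits and single libraries left out.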

Additional observations from a re-analysis of the deposited data

Results flagged for a closer look

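The difference between the SSEA1+ step and the same days in another sort, or with the other shRNA, was tested for every gene. The largest called differences that met the conditions of the rule for named genes are given here as log2 values, SSEA1+ step of control cells first. Those genes had to reach the median score, with control SSEA1+ libraries of day 6 and day 9 that did not overlap. Predicted genes, clones and pseudogenes were left out, among them Gm49394, which differed from the Thy1+ step by 4.67. Large differences of genes with an overlapping SSEA1+ step are therefore not listed. With Thy1+ cells, the SSEA1+ step was further upward for Olfr920 (5.86, listed at 0 in both day 6 SSEA1+ libraries), Defb1 (5.49), Nrk (4.82), Igf2 (4.68), Peg10 (4.50), H19 (4.22), Mmp3 (4.19) and Pdgfra (4.08). It was further downward for Mobp (-3.36), Ryr1 (-3.21), Nr5a2 (-3.13), Dpysl5 (-3.00), Cnpy1 (-2.96), Tfap2c (-2.80), Lef1 (-2.72) and Lingo3 (-2.59). Defb1, at 77 and 0 at day 6 and 159 and 328 at day 9, loses its call without any one of the libraries except D6_shLuci_SSEA1+ replicate 1, and its difference is 2.34 without D6_shLuci_SSEA1+ replicate 2 and 8.63 without replicate 1.

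With double-negative cells, the SSEA1+ step was further upward for Pdgfra (3.17), H19 (3.16), Igf2 (3.09), Aqp1 (2.74), Il1rl1 (2.54), Aqp5 (2.54), Igfbp4 (2.51) and Lgals1 (2.49). It was further downward for Esrrb (-3.05), Tdgf1 (-2.49), Krt17 (-2.16), Ush1c (-1.51), Dlgap1 (-1.30), Esrp1 (-1.19), Ryr1 (-1.14) and Epcam (-1.12). The Ush1c call is lost without D9_shLuci_SSEA1-Thy1- replicate 1 (adjusted p = 0.0523), and both Ush1c and Esrp1 are lost with quantile normalization (adjusted p = 0.151 and 0.0873) and with a pseudocount of 0.5 (adjusted p = 0.0712 and 0.0589).

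With the Ctcf shRNA step of SSEA1+ cells, the control step was further upward for Il6 (2.79), Calcrl (2.61), Ereg (2.59), Angpt1 (2.45), Col3a1 (2.12), Lum (2.10), Pi15 (2.06) and Thy1 (2.01). It was further downward for Slc16a3 (-3.08), Igfbp2 (-2.65), Tet1 (-1.44), Prtg (-1.35), Lrp2 (-1.25), Slc2a3 (-1.17), Slc2a1 (-1.14) and Itga3 (-1.13). With only the groups compared in the fit, the calls of Calcrl (adjusted p = 0.119), Pi15 (0.0703), Prtg (0.0607), Lrp2 (0.0771), Il6 (0.0782), Lum (0.286) and Thy1 (0.0589) are lost.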

How the results depend on the processing

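The main counts of 3031 rises and 3629 falls ran from 2500 to 3189 and from 2672 to 3954 over the alternatives, except the threshold of 1 on the log2 scale, which left 1412 and 459. Quantile normalization moved the median of all genes to -0.11 and the calls to 2734 and 3938. The fit with a replicate block gave 3120 and 3825. Same-numbered libraries did not deviate together (correlation -0.01), so the numbers were not used as pairs. At that fold threshold the other counts were 1131 and 485 (Ctcf shRNA step), 444 and 254 (Thy1+ step), 819 and 253 (DN step), 1203 and 459 (difference from Thy1+), 525 and 62 (from DN) and 434 and 80 (from Ctcf shRNA). With only the groups compared in the fit, the Ctcf shRNA step had 1744 and 1443, the Thy1+ step 1162 lower and the difference from Ctcf shRNA 147 and 86. The cause was not tested.

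With 1 library left out, where the lone library is assumed to vary like the other groups, the SSEA1+ step had 2580 to 2657 rises and 2672 to 2908 falls. The Thy1+ step had 967 to 999 rises and 1056 to 1225 falls, the DN step 1685 to 1765 falls, and genes with the lower SSEA1+ step numbered 114 to 149 against DN and 231 to 536 against Ctcf shRNA. Of 251 named calls, 48 were lost on leaving out 1 of the 4 libraries. Cdh1, Elf3, Elf5 and Sall4, not called, passed with a pseudocount of 8 and with only the groups compared. Reversed were Pcdhb14 without D6_shLuci_SSEA1+ replicate 1 (-0.60, and 6.88 without replicate 2), and Gata4 (-0.19) and Nog (-0.64) after quantile normalization, none of them past the threshold. Low scores, such as the 139 to 321 genes listed at 0 in each of the 4 libraries, limit the precision of fold changes.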

Other observations

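Of 527 X-linked genes, a set chosen after the values were seen, 140 (26.6%) rose and 106 (20.1%) fell, with a median of -0.0012. Over all genes 22.5% rose and 27% fell, with a median of -0.07.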
